A study of Homo sapiens with 16 samples.

Results

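Averaged nascent RNA profiles taken 25 min after release from DRB were compared between cells depleted of RECQL5 (KD) and cells expressing it (WT). The samples labelled with this time are 4 of the 16 in the series, 1 profile for each status in each of 2 clones, numbered 15 and 18. KD departed from WT in the same way in both clones over the first 1 kb, where its depth was lower, and between 10 and 30 kb, where its depth declined earlier. From 2 to 10 kb the profiles lay nearly on top of each other in the deposited scaling. At the foot of the leading edge the clones differed, and KD lay slightly further out than WT in clone 15 but not in clone 18. The lead in clone 15 was 0.668 kb at 10% of the edge's height, and −0.071 kb with the profile before release subtracted.

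RECQL5 is a DNA helicase of the RECQ family that binds RNA polymerase II (RNAPII). DRB blocks the kinases that release RNAPII into productive elongation, so that polymerases move into genes as a wave once the drug is washed out. In DRB/GRO-seq, nuclei are taken at set times after release, engaged polymerases extend their transcripts with BrUTP, and the labelled RNA is sequenced. The depth at a given distance from the transcription start site (TSS) reports how much engaged RNAPII lies there, and the leading edge reports how far the wave has travelled.

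The cells were HEK293T-Rex, a kidney-derived human line with the tetracycline repressor. Each clone grew from 1 colony carrying an shRNA against endogenous RECQL5 and an shRNA-resistant RECQL5 gene behind a doxycycline-responsive promoter, in WT and KD alike. WT kept doxycycline, KD had been without it for 4 days, and both were held in DRB (3.5 hr) before release. The labels attach the times to doxycycline, and the treatment protocol and the study's methods give them as minutes after release, which is used here. WT and KD thus differ in doxycycline as well as in RECQL5, and the effects of these cannot be told apart. The RECQL5 level could not be checked, because each profile is 1 average over 8529 long genes and holds no value of a single gene.

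The signal is the mean normalized read depth, with every library scaled to 20000000 reads. The library sizes were 22119814 (WT) and 33537453 (KD) reads in clone 15, and 28786835 and 26403344 reads in clone 18. Counting error was at most 0.00818 on the log2 scale for the ratio of KD to WT in any 1 kb bin. With 2 samples against 2, the exact permutation test cannot go below p = 0.333, and no difference given here could pass a threshold of 0.05. Differences are therefore described by their size, by their SD between the 2 clones, and by whether the groups overlap. Each combination of clone, status, and time was sampled once, so that the clones are the only replicates. The exact permutation test gives its smallest value whenever the groups do not overlap, whatever the spread between clones. It also leaves the samples unpaired, although the differences and their SDs are taken within clones. Pairs of values are given as WT against KD.

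At the promoter, KD had lower depth than WT in both clones. Over the first 1 kb the mean depth was 8.63 against 5.41 in clone 15 and 7.99 against 5.38 in clone 18. Both KD values lay below both WT values, and they were 62.7% and 67.3% of WT in the same clone. The log2 ratio of KD to WT was −0.67 in clone 15 and −0.57 in clone 18, with a mean of −0.62 ± 0.07 (SD, n = 2, two-sided exact permutation p = 0.333). Close to the TSS the ratio was nearly the same in both clones, with −0.70 and −0.72 over the first 0.25 kb and −0.72 and −0.73 from 0.25 to 0.5 kb. It was smaller further out, with −0.64 and −0.49 from 0.5 to 1 kb and −0.17 and −0.07 from 1 to 2 kb. When profiles were scaled to summed depth, the ratio from 1 to 2 kb was −0.11 in clone 15 and 0.019 in clone 18.

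The peak of engaged RNAPII downstream of the TSS was both lower and further out in KD. In clone 15 it reached a depth of 10.4 at 714 bp in WT, against 6.63 at 800 bp in KD. In clone 18 it reached 10.7 at 791 bp in WT, against 7.97 at 906 bp in KD. Neither heights nor positions overlapped between the groups, although the positions of WT in clone 18 and KD in clone 15 were close. Relative to the depth over 2 to 10 kb of the same profile, the peak was 2.26 and 2.35 times as high in WT, and 1.42 and 1.72 times as high in KD.

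**Figure D1:**
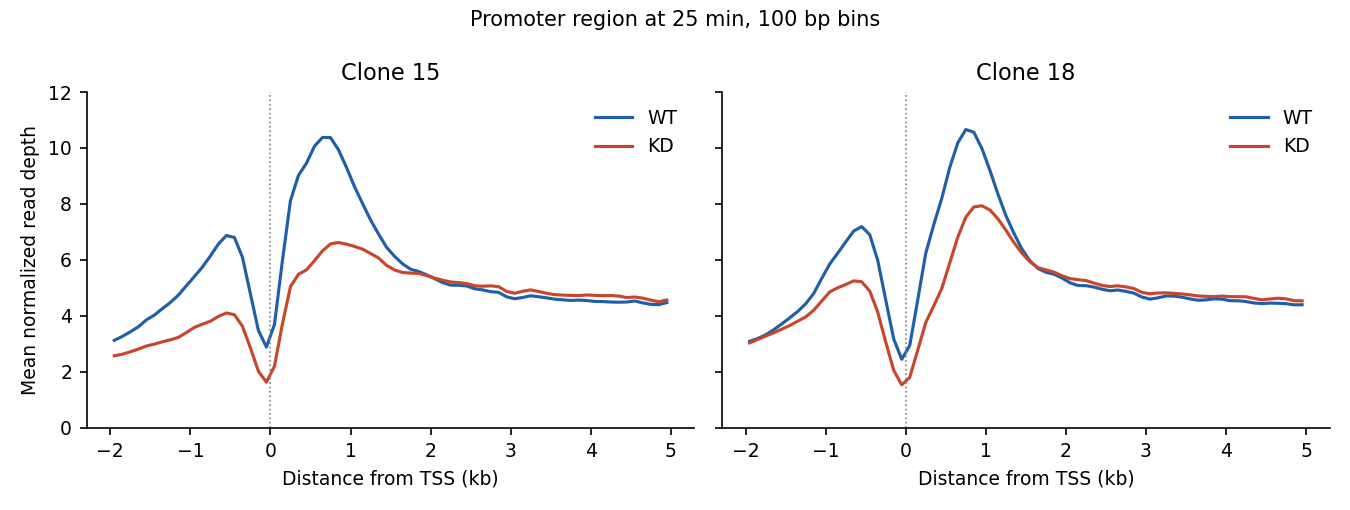
Mean normalized read depth in 100 bp bins from −2 to 5 kb around the TSS at 25 min, with WT in blue and KD in red, 1 line per sample and 1 panel per clone. KD lies below WT on both sides of the TSS, and the 1 kb running means meet at 2.11 kb in clone 15 and 1.75 kb in clone 18.

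A smaller peak lay upstream of the TSS, where divergent transcription from promoters is commonly seen. The libraries were strand-specific, and which strand the profiles count is not given in the sources used here. In clone 15 this peak stood at −515 bp with a depth of 6.92 in WT, against −526 bp and 4.11 in KD. In clone 18 it stood at −569 bp with a depth of 7.20 in WT, against −603 bp and 5.29 in KD. Its height was thus lower in both KD profiles, and its positions differed more between clones than between WT and KD. Over the whole 2 kb upstream the depth was 4.73 against 3.14 in clone 15 and 4.78 against 3.88 in clone 18. The groups did not overlap, and the log2 ratios of −0.59 and −0.30 gave a mean of −0.44 ± 0.21 (SD, n = 2, two-sided exact permutation p = 0.333).

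KD already had less promoter signal than WT before release. At 0 min the depth over the first 1 kb was 31.3 against 3.49 in clone 15 and 25.9 against 17.7 in clone 18, which are log2 ratios of −3.16 and −0.55. At 10 min the ratios were −2.61 and −0.52, so that the clones stood far apart at both earlier times and close together at 25 min. At 40 min the ratio was 0.72 in clone 15 and −0.23 in clone 18. The ratio at 25 min less that at 10 min was 1.94 and −0.054 (exact sign-flip permutation test, two-sided, p = 1). The ratio at 25 min less that at 40 min was −1.39 and −0.34 (the same exact test, p = 0.5, the smallest that 2 pairs allow).

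Between 2 and 10 kb, KD and WT differed little in the deposited scaling. The mean depth was 4.62 against 4.66 in clone 15 and 4.55 against 4.64 in clone 18. Both KD values were above both WT values, at 101% and 102% of WT, and the log2 ratio was 0.020 ± 0.011 (SD, n = 2, two-sided exact permutation p = 0.333). The excess lay nearest to the promoter, with KD at 103% of WT in each clone over 2 to 5 kb. The 1 kb running means crossed again at 7.42 kb in clone 15 and at 9.17 kb in clone 18, and KD lay below WT from there to 32.3 kb in clone 15 and to 42.0 kb in clone 18. At 10 min the log2 ratio over 2 to 10 kb was −1.24 in clone 15 and −0.54 in clone 18. The ratio at 25 min was above that at 10 min by 1.25 and 0.57 (exact sign-flip permutation test, two-sided, p = 0.5). Scaled to summed depth, the log2 ratio over 2 to 10 kb at 25 min was 0.076 in clone 15 and 0.11 in clone 18. Both KD profiles then lay above both WT profiles in all 8 bins of 1 kb.

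**Figure D2:**
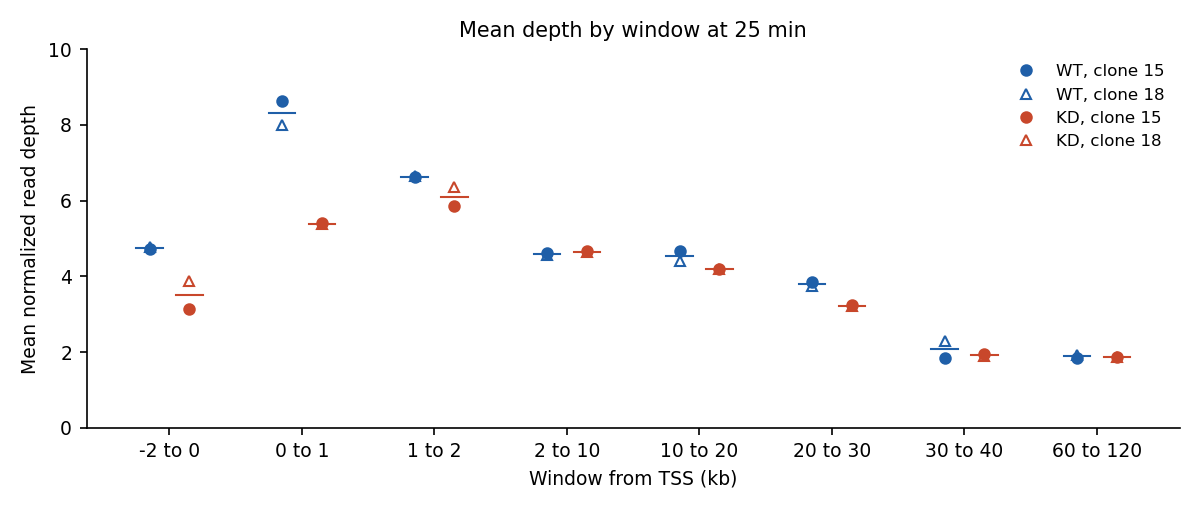
Mean normalized read depth at 25 min by window of distance from the TSS, with 1 point per sample (filled circles, clone 15, and open triangles, clone 18) and a bar at the mean of the 2 clones. WT lies above KD from −2 to 2 kb and from 10 to 30 kb, and the groups overlap at 30 to 40 kb and at 60 to 120 kb.

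Further into genes, the WT profiles stayed nearly level to 20 kb and the KD profiles sloped down. Over 10 to 20 kb, the depth was 4.68 against 4.20 in clone 15 and 4.42 against 4.21 in clone 18. The KD values were almost the same, and the WT values were higher and further apart. The log2 ratios were −0.16 and −0.07, with a mean of −0.11 ± 0.06 (SD, n = 2, two-sided exact permutation p = 0.333). A straight line through the depth from 5 to 20 kb, fitted after the profiles had been seen, had slopes per kb of 0.0042 against −0.052 in clone 15 and −0.015 against −0.051 in clone 18.

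The gap was wider at 20 to 30 kb. Over 15 to 20 kb, KD was at 87.1% of WT in clone 15 and 93.1% in clone 18, and over 20 to 25 kb at 83.3% and 88.1%. Over 20 to 30 kb the depth was 3.86 against 3.25 in clone 15 and 3.75 against 3.21 in clone 18. The groups lay well apart here, with log2 ratios of −0.25 and −0.23 and little spread between clones (mean −0.24 ± 0.016, SD, n = 2, two-sided exact permutation p = 0.333). The lowest ratio in any 1 kb bin from 2 to 40 kb lay at 23 to 24 kb in clone 15, with depths of 4.17 against 3.44, a difference of −17.6%. In clone 18 it lay at 31 to 32 kb, with depths of 2.89 against 2.30, a difference of −20.6%.

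The loss of depth along the wave also stood within each profile, where library scaling has no part. The depth over 20 to 30 kb was 0.835 and 0.824 of that over 2 to 10 kb in WT, against 0.698 and 0.691 in KD. The difference of −0.135 ± 0.0038 (SD, n = 2) was larger than the spread within either group (two-sided exact permutation p = 0.333, on a ratio chosen after the profiles had been seen). The depth over the first 1 kb was 1.87 and 1.76 times that over 2 to 10 kb in WT, against 1.16 in each KD profile. At 40 min, the log2 ratio of KD to WT over 20 to 30 kb was −0.17 in clone 15 and 0.07 in clone 18. The ratio at 25 min less that at 40 min was −0.078 and −0.30 (exact sign-flip permutation test, two-sided, p = 0.5).

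**Figure D3:**
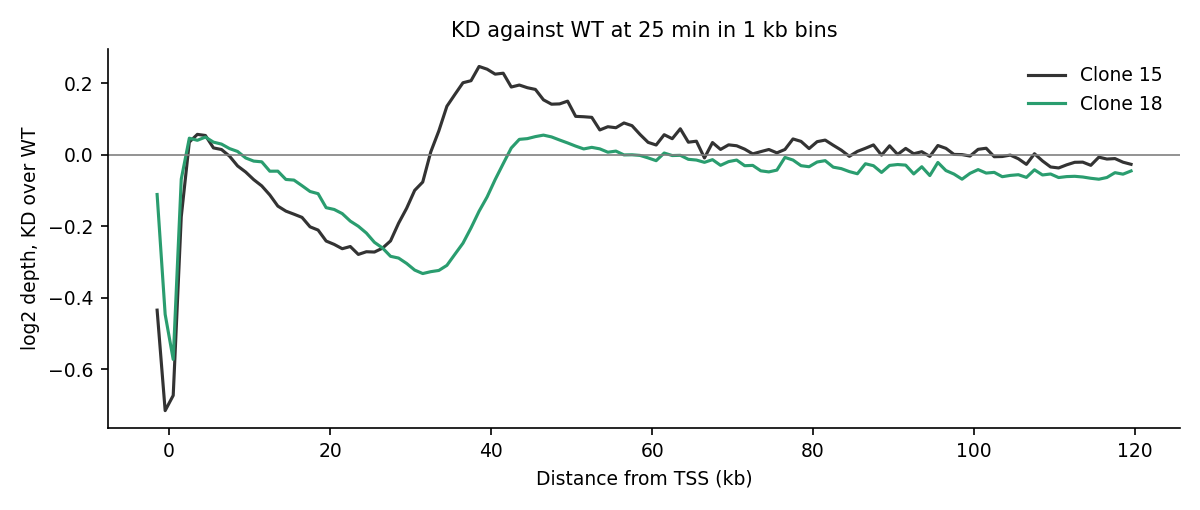
Log2 ratio of KD to WT depth at 25 min in 1 kb bins against distance from the TSS, 1 line per clone. Both lines dip at the TSS, lie close to 0 between 2 and 10 kb, and reach −0.28 at 23 to 24 kb in clone 15 and −0.33 at 31 to 32 kb in clone 18.

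Counted in 1 kb bins, both KD profiles lay below both WT profiles in 40 of 122 bins (32.8%) and above both in 20 of 122 (16.4%). All 4 bins from −2 to 2 kb and all 23 bins from 9 to 32 kb were below, and the other 13 below lay beyond 94 kb. The bins above lay from 2 to 7 kb (5 bins), from 42 to 56 kb (14 bins), and at 61 to 62 kb (1 bin). Bins of 1 profile share their reads and their scale and are not independent. The split moved with the scaling, to 28 below and 67 above when profiles were scaled to 100 to 120 kb, 18 and 88 when scaled to summed depth, and 50 and 12 when scaled to 2 to 10 kb. All 10 bins from 20 to 30 kb lay below under each of these scalings, and of the 4 bins from −2 to 2 kb 3 did so when scaled to summed depth and all 4 under the others. From 10 to 20 kb the number below was 6 of 10, 3 of 10, and 10 of 10 in the same order. Scaled to summed depth, the log2 ratio over 10 to 20 kb was −0.092 in clone 15 and 0.016 in clone 18.

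**Figure D4:**
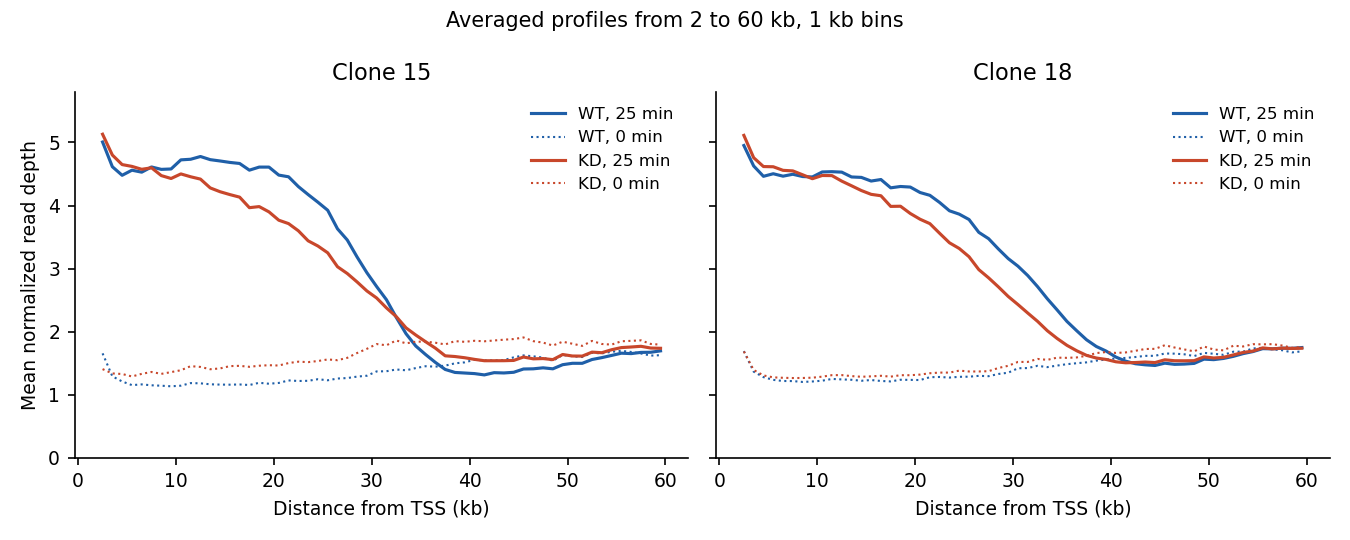
Mean normalized read depth in 1 kb bins from 2 to 60 kb for WT (blue) and KD (red), at 25 min (solid lines) and at 0 min (dotted lines), 1 panel per clone. The KD wave declines earlier than that of WT in both clones. At 0 min the KD profile lies above that of WT beyond 5 kb in both clones, by more in clone 15.

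The leading edge was followed from its shoulder to its foot. The plateau of each profile (mean over 10 to 20 kb) was set to 100% and its floor (the lowest 5 kb running mean beyond 5 kb) to 0%, and the distance was read where the 1 kb running mean reached a given height. At 90% of the height, the edge lay at 22.2 kb against 19.3 kb in clone 15 and at 21.9 kb against 18.9 kb in clone 18. At 75% it lay at 25.8 kb against 22.9 kb in clone 15 and at 26.0 kb against 22.7 kb in clone 18. The shoulder of the KD wave thus lay closer to the TSS in both clones. The shifts were −2.94 and −2.98 kb at 90% (mean −2.96 ± 0.030 kb) and −2.89 and −3.32 kb at 75% (mean −3.10 ± 0.30 kb, SD, n = 2, two-sided exact permutation p = 0.333 at each height). The closeness of the clones at 90% depended on the plateau, with shifts of −6.76 and −4.87 kb when it was taken over 5 to 15 kb and −9.60 and −7.24 kb when it was the highest 5 kb. The counting error of a position at 90% was 0.0755 to 0.134 kb.

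From the middle of the edge downward the clones separated. At 50% the edge lay at 29.2 kb against 27.9 kb in clone 15 and at 31.2 kb against 27.4 kb in clone 18, which are shifts of −1.26 and −3.81 kb. The shifts were −0.060 and −3.00 kb at 25%, 0.668 and −2.79 kb at 10%, and 0.515 and −2.98 kb at 5%. In clone 18 the KD edge lay behind that of WT at every height read, by between −2.79 and −3.81 kb. In clone 15 the shift went from −3.32 kb at 95% to −0.060 kb at 25% and was positive at 20% and below. The mean shift was −2.53 ± 1.8 kb at 50% and −1.06 ± 2.45 kb at 10% (SD, n = 2, two-sided exact permutation p = 0.333 and p = 1).

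**Figure D5:**
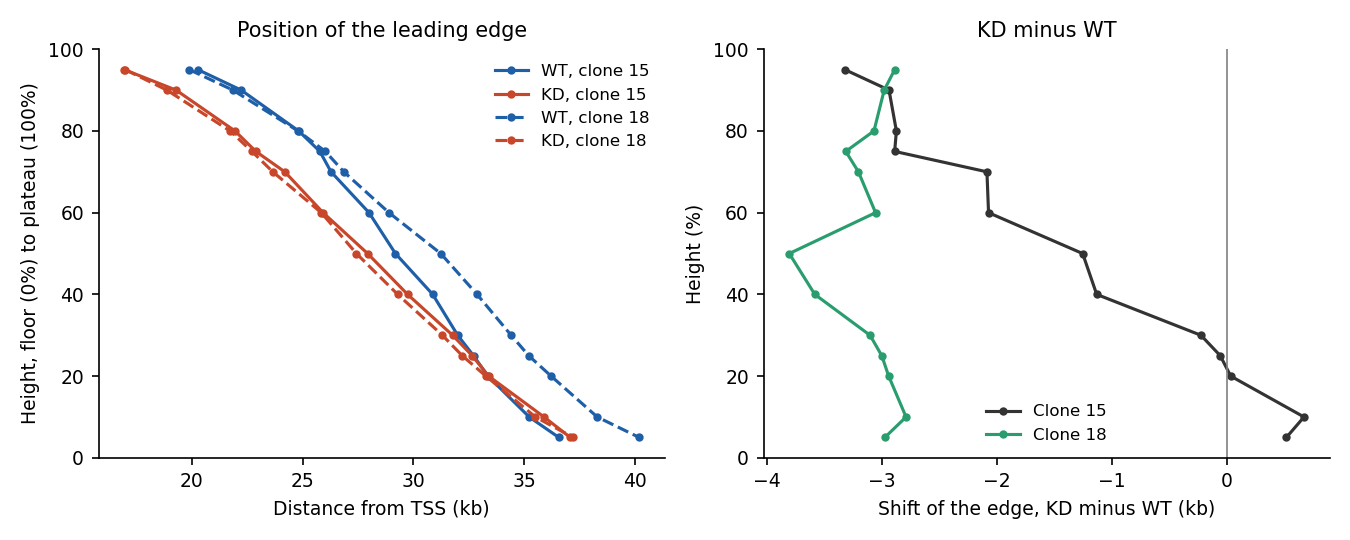
Left, distance from the TSS at which each profile reaches a given height between its floor (0%) and plateau (100%) at 25 min, with WT in blue, KD in red, clone 15 as solid and clone 18 as dashed lines. Right, the shift of KD against WT at the same heights, which lies between −2.88 and −3.32 kb in both clones at 75% and above and differs between the clones below.

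At the foot, the KD profiles lay closer together than the WT profiles. At 10% the KD edges lay at 35.9 and 35.5 kb, and the WT edges at 35.2 and 38.3 kb. Over 30 to 40 kb the depth was 1.84 against 1.95 in clone 15 and 2.30 against 1.90 in clone 18. The log2 ratio there was 0.08 and −0.27, and the mean of −0.09 was smaller than its SD of 0.25 (n = 2, two-sided exact permutation p = 1). Depth in the absence of a wave differed in clone 15 as well. At 0 min it was 1.43 against 1.83 over 30 to 40 kb in clone 15, and 1.48 against 1.59 in clone 18. The floor at 25 min was 1.33 against 1.54 in clone 15 and 1.48 against 1.51 in clone 18. With the 0 min profile subtracted, the shift at 10% was −0.071 kb in clone 15 and −2.44 kb in clone 18, and that at 75% was −2.87 and −3.16 kb. With the same subtraction, the log2 ratio over 30 to 40 kb was −0.91 in clone 15 and −1.16 in clone 18, both KD values lay below both WT values, and the mean was −1.04 (two-sided exact permutation p = 0.333, n = 2). Subtracted depths below 0.1 were set to 0.1 at each base, and these ratios depend on that limit. Over 35 to 40 kb in clone 15, depth at 0 min exceeded that at 25 min. The values were 1.47 and 1.45 in WT, and 1.83 and 1.68 in KD.

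The edge of the KD wave was broader than that of WT in clone 15, and in clone 18 the difference depended on how the edge was set. From 75% to 25% of the height, the edge spanned 6.94 kb against 9.77 kb in clone 15 and 9.18 kb against 9.50 kb in clone 18. Both KD values were above both WT values, and the difference of 1.57 ± 1.78 kb was within the spread between clones (SD, n = 2, two-sided exact permutation p = 0.333). In clone 18 the difference was −0.195 kb with the floor taken at 100 to 120 kb and −0.655 kb with a correction for transcript length, but 0.955 kb with the plateau over 5 to 15 kb and 2.22 kb with the plateau as the highest 5 kb. With this last plateau the difference in clone 15 was 5.58 kb, and the mean was 3.90 kb. From 90% to 10% the spans were 13.0 kb against 16.6 kb in clone 15 and 16.4 kb against 16.6 kb in clone 18, and with the plateau as the highest 5 kb the differences were 9.69 and 4.17 kb. In clone 18 this difference was −0.665 kb with the correction for transcript length and −0.393 kb with a running mean of 0.5 kb. It was positive there under the other alternatives. The steepest slope, in percent of the height per kb, was −8.29 against −6.38 in clone 15 and −6.42 against −6.34 in clone 18. It lay at 32.1 kb against 25.3 kb in clone 15 and at 33.8 kb against 26.4 kb in clone 18, a measure chosen after the profiles had been seen.

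Positions read at a fixed depth need no plateau or floor, but they depend on the scaling of the libraries. They were read in the deposited scaling only. A depth of 4 was reached at 24.9 kb against 17.2 kb in clone 15 and at 22.8 kb against 17.3 kb in clone 18. A depth of 3 was reached at 29.2 kb against 26.8 kb in clone 15 and at 30.9 kb against 26.4 kb in clone 18. A depth of 2 was reached at 33.4 kb against 33.9 kb in clone 15 and at 36.6 kb against 33.6 kb in clone 18. KD thus lay closer to the TSS in both clones at depths of 4 and 3, and in clone 18 but not clone 15 at a depth of 2.

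The centre of the wave, the mean distance of the depth above the floor, lay at 14.1 kb against 13.5 kb in clone 15 and at 14.8 kb against 13.4 kb in clone 18. Both KD values were below both WT values, with shifts of −0.563 and −1.40 kb (mean −0.983 ± 0.595 kb, SD, n = 2, two-sided exact permutation p = 0.333). With the 0 min profile subtracted, the shifts were −6.35 and −2.77 kb, larger in both clones and in the opposite order. The centre then lay at 20.3 kb against 13.9 kb in clone 15 and at 20.4 kb against 17.6 kb in clone 18. The subtracted depth over the first 1 kb also differed, with 31.3 against 3.49 in clone 15 and 25.9 against 17.7 in clone 18. How far this promoter signal set the subtracted centres was not tested, so the larger shifts do not show a larger lag of the KD wave.

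Ahead of the wave, from 60 to 120 kb, the depth was 1.85 against 1.86 in clone 15 and 1.92 against 1.87 in clone 18. The groups overlapped, with log2 ratios of 0.0080 and −0.039 (two-sided exact permutation p = 1). With the 0 min profile subtracted, the ratios were −0.70 and −0.79. The share of reads counted in the averaged profile was 51.3% against 49.1% in clone 15 and 52.3% against 49.2% in clone 18. It leaves out the genes trimmed at each base. Genes in the average end at different distances, and of 8888 protein-coding genes of at least 30 kb in the annotation used here, 83.5% still ran at 40 kb.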

How the data were processed

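DRB/GRO-seq libraries of 16 samples were sequenced by the authors, and the 4 samples at 25 min are compared here. Per the submitters' processing notes and the study's methods, reads of 36 bp were processed with CASAVA 1.8.2 and aligned to hg19 with BWA 0.5.9 (up to 3 alignments per read). Reads on rRNA genes and blacklisted regions were removed, extension was to 250 bp, and libraries were scaled to 20000000 reads. The deposited signal is the read depth (coverage) at each of 122001 positions, which the authors computed as a trimmed mean (0.01) over genes of at least 30 kb, 1 file per sample. The Ensembl release is not given in the sources used here. All values were whole multiples of 1 step per library (within 3.32e-09 of a whole number), and the steps share a factor of 8359 genes, which trimming leaves from 8529. The steps gave library sizes and counting errors. With equal scaling, more reads elsewhere lower a whole profile.

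Window means were compared on the log2 scale with no pseudocount. After subtraction of the 0 min profile, however, depths below 0.1 were set to 0.1 at each base before the window means were taken. WT and KD were compared by exact permutation over the clones, two-sided, and differences between times by exact sign flips. Same-numbered samples come from the same clone by their labels, and their deviations from the group means had a correlation of −0.0702 over 122 bins. Edge positions were tested on simulated data. Alternatives were other scalings, bins, plateaus, floors, and running means, subtraction of the 0 min profile, a correction for transcript length (GENCODE 44 on GRCh37, the same build as hg19), the study's rule for single genes (depth below 3 for 5000 bp), the clone as a block, and each clone alone. Scaling to 2 to 10 kb, ratios within a profile, slopes, fixed depths, and distances between profiles were added after the data were seen. By rule no gene is named, since profiles hold no single genes. The windows and measures were chosen with earlier results of these data known. Python 3.11.15, numpy 2.4.6, pandas 2.3.3, and matplotlib 3.10.9 were used.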

Additional observations from a re-analysis of the deposited data

Results flagged for a closer look

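The difference between KD and WT had opposite signs in the 2 clones for 10 results in the deposited scaling. Each clone gave 1 pair of samples, so whether the clones differ was not tested. Clone 15 exceeded clone 18 by 0.36 in the log2 ratio over 30 to 40 kb, where the clones had 0.08 and −0.27. It exceeded clone 18 by 0.047 in the log2 ratio over 60 to 120 kb, with 0.0080 and −0.039. The shift of the edge at 10% of the height was 3.46 kb further out in clone 15, with 0.668 and −2.79 kb. The log2 ratio over the first 1 kb at 25 min less that at 10 min was larger by 1.99 in clone 15, with 1.94 and −0.054. The log2 ratio over 2 to 10 kb at 25 min less that at 40 min was larger by 0.21 in clone 15, with 0.17 and −0.043. The shift of the edge was further out in clone 15 by 2.97 kb at 20% of the height (0.031 and −2.94 kb), by 3.49 kb at 5% (0.515 and −2.98 kb), and by 3.48 kb at a depth of 2 (0.481 and −3.00 kb). At 40 min the log2 ratio of clone 15 less that of clone 18 was 0.95 over the first 1 kb, with 0.72 and −0.23, and −0.24 over 20 to 30 kb, with −0.17 and 0.07.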

How the results depend on the processing

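No result passed a threshold of 0.05 under any setting, as 2 samples a side do not allow it. Blocking by clone (a replicate block) left each mean difference as it was, with −0.62 for the log2 ratio at 0 to 1 kb, −0.24 at 20 to 30 kb, and −2.96 kb for the edge at 90% (exact sign-flip permutation test, p = 0.5 for each, the smallest for 2 pairs), and no call changed. The mean shift of the edge was negative under all 7 alternatives at 90%, between −8.42 and −2.66 kb, at 75%, between −6.19 and −2.83 kb, and at 50%, between −3.89 and −2.20 kb. The value of −8.42 kb came with the plateau taken as the highest 5 kb. At 10% the shift lay between −1.68 and −0.95 kb under 7 alternatives, and the study's rule for single genes, which read positions of 26.4 to 31.0 kb, near those at 50%, gave −3.22 kb. The mean difference in width was 0.888 to 3.90 kb from 75% to 25% and 1.32 to 6.93 kb from 90% to 10%, under 7 alternatives each. In clone 18 alone both widths were smaller in KD with the correction for transcript length, by −0.655 and −0.665 kb. The log2 ratio at 20 to 30 kb lay between −0.53 and −0.16 under 5 alternatives. With the 0 min profile subtracted, the mean log2 ratio became 0.48 for the 2 kb upstream, 2.13 at 0 to 1 kb, 0.48 at 1 to 2 kb, and −0.0033 at 2 to 10 kb, against −1.04 at 30 to 40 kb and −0.75 at 60 to 120 kb, and the mean position shifted by −4.56 kb. At 0 to 1 kb the 0 min depth was above that at 25 min in all profiles but KD of clone 15. The others thus sat at the lower limit of 0.1. Over the 2 kb upstream, the 0 min depth was likewise the higher in those profiles. The subtracted ratios at 30 to 40 kb and at 60 to 120 kb also depend in part on the lower limit. With the subtraction, the ratios upstream and at 1 to 2 kb were 1.20 and 1.07 in clone 15. In clone 18 they were −0.24 and −0.10. The ratio at 60 to 120 kb became 0.020 when scaled to 100 to 120 kb, a part of that window which this scaling sets equal. It became 0.059 when scaled to summed depth, and the bins with KD below WT then numbered 18. With 1 clone alone, the ratio lay between −0.27 and 0.084 at 30 to 40 kb and between −0.039 and 0.0080 at 60 to 120 kb, and the edge shift at 10% between −2.79 and 0.668 kb. The ratio at 25 less 10 min lay between −0.054 and 1.94 at 0 to 1 kb, that at 25 less 40 min between −0.043 and 0.17 at 2 to 10 kb, and the bins with KD below WT between 51 and 100. The cause was not tested, apart from the lower limit.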

Other observations

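From 2 to 40 kb, the KD profiles of the 2 clones were more alike than any other pair of the 4 profiles at 25 min. Over 38 bins of 1 kb, they differed by 0.019 on the log2 scale on average and by at most 0.060. The WT profiles of the 2 clones differed by 0.13 on average and by up to 0.42, and the pairs of KD with WT by 0.14 to 0.15 on average. The KD profiles still differed by over 2 counting errors in 23 of the 38 bins, and over the first 1 kb they differed by 0.25 on average in 100 bp bins. At the earlier times the KD profiles of the 2 clones lay far apart, with depths over the first 1 kb of 3.49 and 17.7 at 0 min and of 4.48 and 20.3 at 10 min. This comparison was made after the profiles had been seen and has no test.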
